A study of Saccharomyces cerevisiae with 2 samples.

Results

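The respiratory chain and ATP synthase genes of budding yeast, Saccharomyces cerevisiae, were followed in 1 mock-treated culture and in 1 culture given the mating pheromone alpha factor. The source name of the treated sample gives its cells as arrested by alpha factor. Members were chosen by a rule on names, with earlier results of these data known. The rule takes every gene with an annotated symbol formed from COX, QCR, ATP, SDH, CYC, RIP, COR or CYT and a number. A final A or B is allowed. The rule gave 68 genes, of which 61 were measured, among 5449 genes measured in all. The other 7 were not analysed here, since no probe set is named for them: the mitochondrially encoded COX1, COX2, COX3, ATP6 and ATP8, and the nuclear COX26 and SDH9. All values below therefore concern nuclear genes.

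Both cultures were of strain R276, haploid cells of the a mating type in the S288c background, derived from BY4741. The strain carries the alleles ura3Δ0, leu2Δ0, his3Δ1 and met15Δ0, and in place of BAR1, the protease that degrades alpha factor, a KanMX cassette. The treated cells grew in the rich medium YPD at 30°C and received 50 ng/ml of alpha factor for 3 hours, after which about 90% carried mating projections. For the mock culture, no growth conditions were found in the sources at hand. Its free-text description repeats the one given for the treated sample, in conflict with its title and source name, and the groups, and with them the direction of every ratio, rest on the source names. YPD contains glucose, a sugar that represses respiration in this yeast.

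Electrons from succinate enter the chain at complex II (succinate dehydrogenase, which is also an enzyme of the citric acid cycle). They pass through ubiquinone to complex III (the cytochrome bc1 complex), then through the small carrier cytochrome c to complex IV (cytochrome c oxidase), where oxygen is reduced. Complexes III and IV pump protons across the inner mitochondrial membrane, and complex V (ATP synthase) uses the returning protons to make ATP. Complex I is absent from this yeast. Each complex also needs assembly factors, proteins that insert heme, copper, flavin or iron-sulfur clusters or fold a subunit, and that are not part of the finished enzyme. The genes counted here as assembly factors also include ATP22, ATP25 and COX14, which act on the synthesis of a subunit or the stability of its messenger. Of the 61 genes, 37 encode subunits or cytochrome c itself, 23 encode assembly or maturation factors, and 1, CYC8, lies outside the chain: it encodes a transcriptional co-repressor that works with Tup1 and carries a CYC name. Complex II had 8 measured genes, complex III had 10, cytochrome c and its maturation had 4, complex IV had 19 and complex V had 19.

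Each culture was measured on 1 Affymetrix Yeast 2.0 array, so no value has a replicate error and no difference between the cultures was tested. Values are log2 expression values, and ratios are alpha factor over mock. The background level, 5.50 in both arrays, is the 95th percentile of 1747 probe sets for the fission yeast S. pombe, assumed to match no RNA in these cultures. Those probe sets had log2 ratios between -0.38 and 0.35 in 95% of cases, which describes dim signal and not the spread between cultures. Of all genes, 5337 were above background in at least 1 array, with a median log2 ratio of -0.03. The a-cell markers STE2, MFA1, MFA2, AGA2 and STE6 were all measured at 11.98 or more in the mock array. The alpha-cell marker MF(ALPHA)1 was at 5.85 and 5.93, close to background, while STE3, another alpha-cell marker, was at 7.74 in the mock array and 9.49 with alpha factor. The alpha-cell markers MF(ALPHA)2, at 6.36 in the mock array and 8.64 with alpha factor, and SAG1, at 9.53 and 9.91, were also above background. Among the control probe sets, 8 of the large ribosomal RNA had log2 ratios from -5.20 to 0.01, with a median of -0.85. Whether these ratios reflect RNA quality, and their part in the results below, was not tested. In RNA from a whole culture, fewer cells expressing a gene and less of its RNA per cell cannot be told apart. Nor can the response to the pheromone be told apart from the arrest of the treated cells.

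All 61 members were above background in both arrays, and each was read by 1 probe set with no name ending that marks several transcripts. Only 3 members differed by 2-fold or more. SDH6 and ATP22, both counted as assembly factor genes, were higher with alpha factor. CYC1, the gene of the main form of cytochrome c, was lower. These calls cover 3.28% of members in the upward and 1.64% in the downward direction. Among all genes above background the 2-fold rule called 5.51% higher, 3.78% lower and 9.29% in either direction, so calls were no more common among the members. At 1.5-fold, 10 members (16.4%) were higher and 3 (4.92%) were lower, against 12.1% and 10.7% of all genes. The members' ratios were small and leaned upward: 43 of 61 had a ratio above 1, against 45.8% of all genes, and their median log2 ratio was 0.15. Without the complex II genes the median was 0.08.

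**Figure D1:**
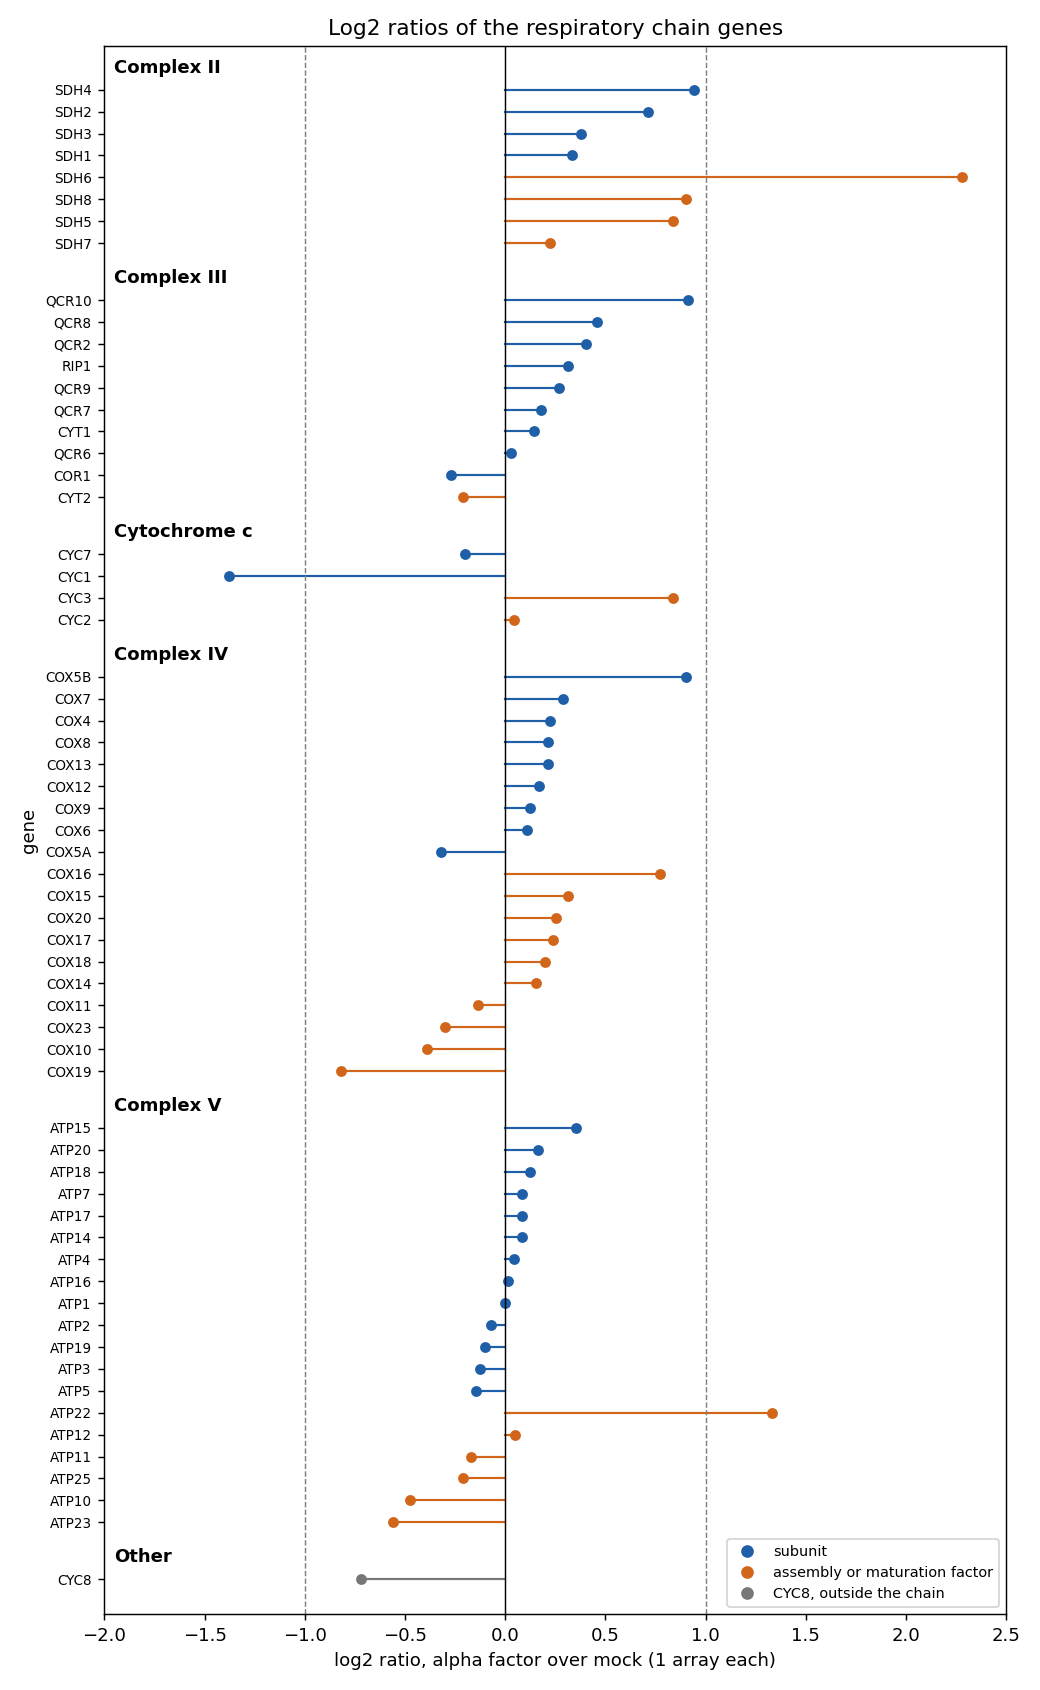
Log2 ratio of alpha factor over mock (horizontal axis) for each of the 61 members, grouped by complex, with subunits in blue, assembly or maturation factors in orange and CYC8 in grey. Dashed lines mark 2-fold. All 8 complex II genes lie to the right of 0, and the ATP synthase subunits lie between -0.14 and 0.35.

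The complexes differed in their medians. The median log2 ratio was 0.77 for complex II, 0.22 for complex III, 0.20 for complex IV, 0.01 for complex V and -0.08 for the 4 cytochrome c genes. With 1 array per culture this order has no test, and the medians of complexes III and IV lie close together.

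Complex II had the largest shift, with all 8 measured genes above a ratio of 1 and 5 of them at 1.5-fold or more, against 12.1% of all genes. Among the catalytic subunits, SDH1, the flavoprotein that oxidises succinate, was at 10.92 in the mock array and 11.26 with alpha factor, a log2 ratio of 0.33. SDH2, the iron-sulfur subunit that carries the electrons onward, was at 10.73 and 11.44, a log2 ratio of 0.71. Both catalytic subunits were thus higher by less than 2-fold. The membrane anchors, which bind ubiquinone, were also higher: SDH3 was at 12.03 and 12.41, a log2 ratio of 0.38. SDH4 was at 11.70 and 12.65, a log2 ratio of 0.94, just short of 2-fold. After removal of a loess curve this ratio was 1.01, which passes the rule.

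The largest ratio of any member belonged to an assembly factor of complex II. SDH6, needed for the maturation of the iron-sulfur subunit Sdh2, was at 8.09 in the mock array and 10.37 with alpha factor. This is a 4.86-fold higher value, which ranked 53 from the top among 5337 genes. SDH7, a second factor that acts on Sdh2, was at 9.78 and 10.01, with a log2 ratio of 0.22. The factors that act on the same subunit therefore had unequal ratios. SDH5, which promotes the attachment of flavin to Sdh1, was at 9.39 and 10.23, a log2 ratio of 0.84. SDH8, a factor for Sdh1, was at 10.85 and 11.75, a log2 ratio of 0.90. Both factors for the flavoprotein were higher by about the same amount, and the flavoprotein's own ratio was smaller. Without SDH6, the median of complex II was 0.71.

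**Figure D2:**
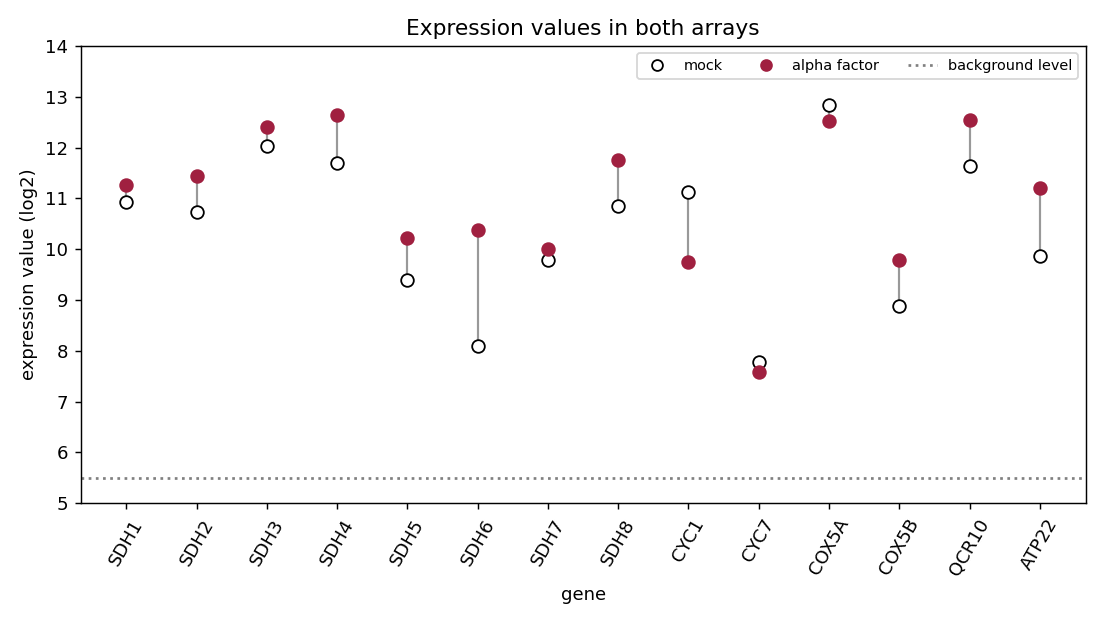
Log2 expression values (vertical axis) of 14 members in the mock array (open circles) and the alpha-factor array (filled circles), with the background level dotted. The 8 SDH genes were all higher with alpha factor, SDH6 by the most, while CYC1 went from 11.12 to 9.74.

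In complex III, 8 of 9 measured subunit genes had a ratio above 1, against 45.8% of all genes. None of the 9 reached 2-fold, against 9.29% of all genes, and their median log2 ratio was 0.27. QCR10, a small subunit at the edge of the complex, had the largest, from 11.64 to 12.55, a log2 ratio of 0.91. The other 8 subunits lay between -0.27 and 0.46. QCR8, a small subunit, was at 12.63 and 13.08, and QCR2, a core subunit, was at 11.57 and 11.98. Both were higher with alpha factor, by 0.46 and 0.40 on the log2 scale. COR1, the partner of QCR2 in the core, had the lowest ratio of the subunits, from 12.15 to 11.88, so that the core pair had ratios of opposite sign. The subunits that carry electrons were RIP1, the Rieske iron-sulfur protein, with a log2 ratio of 0.32, and CYT1, cytochrome c1, with 0.15. QCR9, QCR7 and QCR6, small subunits, had log2 ratios of 0.27, 0.18 and 0.03. CYT2, the lyase that attaches heme to cytochrome c1, was at 10.16 and 9.95.

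The main cytochrome c gene, CYC1, went the other way from most subunit genes of complexes III and IV. CYC1, which encodes iso-1-cytochrome c, the form that predominates in air, was at 11.12 in the mock array and 9.74 with alpha factor. It was 2.60-fold lower and ranked 116 from the bottom among 5337 genes. CYC7, which encodes iso-2-cytochrome c, a form favoured at low oxygen, was at 7.77 and 7.57, a log2 ratio of -0.20. CYC3, the heme lyase that completes cytochrome c, was higher, from 11.46 to 12.30, a log2 ratio of 0.84. CYC2, which also acts in heme attachment, was at 9.22 and 9.27. The cytochrome gene and its lyase gene thus had ratios of opposite sign.

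CYC1 is next to ANB1 in the annotation, a gene for a translation factor known to be repressed by oxygen, whereas CYC1 is known to be induced by oxygen and heme. ANB1 was at 10.49 in the mock array and 11.21 with alpha factor, a log2 ratio of 0.72, and UTR1, the neighbour on the other side, had a log2 ratio of 0.46. Both neighbours of CYC1 were therefore higher where CYC1 was lower. The neighbours of SDH6, RGA2 and ARO10, had log2 ratios of 0.63 and 0.86. Those of ATP22, YPS7 and SBE2, had 0.37 and 0.45. None of these 6 neighbours reached 2-fold, against 9.29% of all genes above background. Among the complex II genes, the neighbours of SDH5 and SDH4 included genes with ratios of the opposite sign. NBA1, next to SDH5, was lower by 2-fold or more, with a log2 ratio of -1.44, and CSN9, next to SDH4, had -0.84. On their other sides, THP1, next to SDH5, had -0.11, and UBC1, next to SDH4, had 0.08, the same sign as SDH4. The neighbours of SDH8, MRPL37 and BIT2, had -0.18 and -0.17. Neighbours of SDH1, SDH2, SDH3 and SDH7 were not examined.

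Complex IV had 9 measured subunit genes, of which 8 had a ratio above 1, against 45.8% of all genes. None reached 2-fold, against 9.29% of all genes. Of the 9 subunit genes, 7 lay in a narrow range of log2 ratios from 0.11 for COX6 to 0.29 for COX7. COX4, the zinc-binding subunit, had 0.22, COX8 and COX13 had 0.21 each, COX12 had 0.17 and COX9 had 0.12. The remaining pair are the isoforms of subunit 5, which replace each other in the enzyme. COX5A, the form used in air, was at 12.84 in the mock array and 12.52 with alpha factor, a log2 ratio of -0.32. COX5B, the form used at low oxygen, was at 8.89 and 9.79, a log2 ratio of 0.90. COX5B over COX5A was thereby shifted by 1.23 on the log2 scale, or 2.34-fold. For cytochrome c, the same measure, CYC7 over CYC1, was shifted by 1.18, or 2.27-fold. In both pairs the shift was toward the form used at low oxygen, but COX5B itself was higher while CYC7 was not.

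The 10 assembly factor genes of complex IV had no shared direction, with 6 above a ratio of 1 and 4 below it, and a median log2 ratio of 0.18. COX16, which acts in Cox1 assembly, had the largest ratio, from 9.72 to 10.49. COX19, an assembly factor of the intermembrane space, had the lowest, from 9.87 to 9.05, a log2 ratio of -0.82. These 2 of 10 reached 1.5-fold, against 22.8% of all genes, and the other 8 did not. Among the genes of copper delivery, COX17, the copper chaperone, had a log2 ratio of 0.24, COX11, which brings copper to Cox1, had -0.14, and COX23, a relative of COX17, had -0.30. The genes of copper delivery therefore lay on both sides of 0. Of the enzymes that make heme A, COX10, which makes heme O, was at 9.78 and 9.39, and COX15, which turns heme O into heme A, was at 11.37 and 11.68. Their log2 ratios of -0.39 and 0.31 also had opposite signs. COX18 and COX20, which act in the membrane insertion and folding of Cox2, had log2 ratios of 0.20 and 0.26, and COX14, which couples Cox1 synthesis to assembly, had 0.15.

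The ATP synthase subunits had the smallest ratios. None of 13 subunit genes reached 1.5-fold, against 22.8% of all genes above background. The median log2 ratio of the 13 was 0.04, and these genes lay between -0.14 for ATP5 and 0.35 for ATP15. In the catalytic F1 head, ATP1, the alpha subunit, was at 13.92 and 13.93, ATP2, the beta subunit, was at 13.74 and 13.67, and ATP3, the gamma subunit of the rotor, was at 12.70 and 12.57. These 3 differed by 0.13 or less between the arrays. ATP16, the delta subunit, had a log2 ratio of 0.01, and ATP15, the epsilon subunit, had the largest ratio of the 13, from 12.80 to 13.16. The 8 subunits of the stator, the membrane sector and the dimer interface had a median of 0.08. ATP5, the stator subunit known as OSCP, had -0.14, ATP4, ATP7 and ATP14, also of the stator, had 0.04, 0.08 and 0.08, and ATP17 and ATP18 of the membrane sector had 0.08 and 0.12. ATP20 and ATP19, which are found at the dimer interface, had 0.16 and -0.10. Levels near the top of the scale can compress ratios, and these 13 genes lay between 11.76 and 13.92 in the mock array. Their part in the small ratios was not tested.

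The 6 assembly factor genes of complex V spread more widely. ATP22, which activates the translation of the mitochondrial ATP6 messenger, was at 9.87 in the mock array and 11.20 with alpha factor, 2.52-fold higher, and ranked 174 from the top. ATP23, a protease that matures Atp6, was at 10.61 and 10.05, a log2 ratio of -0.56. ATP10, a chaperone of Atp6, was at 6.27 and 5.80, the latter close to background. The 3 factors that serve Atp6 thus had unequal ratios, with ATP22 higher and the other pair at lower values in the alpha-factor array. ATP11 and ATP12, chaperones of the beta and alpha subunits of F1, had log2 ratios of -0.17 and 0.05. ATP25, which stabilises the messenger of the ring subunit, had -0.21.

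Over all complexes, assembly factor genes and subunit genes had nearly equal medians, 0.15 each, which differed by 0.01. Within complexes the difference of medians, assembly factors minus subunits, was 0.32 for complex II, -0.04 for complex IV and -0.23 for complex V. Complex III had 1 assembly factor gene and cytochrome c had 2, too few for a median to describe. The spread was wider for assembly factors, with an interquartile range of 0.75 against 0.30 for subunits and 0.58 for all genes above background. At 1.5-fold or more in either direction were 7 of 23 assembly factor genes and 5 of 37 subunit genes, against 22.8% of all genes. The signal level moved with this difference. Divided at the members' median mean level, 11.78, a division chosen after the values were seen, 30 of 37 subunits and 1 of 23 assembly factors lay at or above it. Of all genes at or above that level 14.3% reached 1.5-fold, and of those below it 25.7% did. Among subunits at or above it 2 of 30 did, and among assembly factors below it 6 of 22 did. Of the 7 subunits below it, 3 reached 1.5-fold. The part of the level in the difference was not tested.

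**Figure D3:**
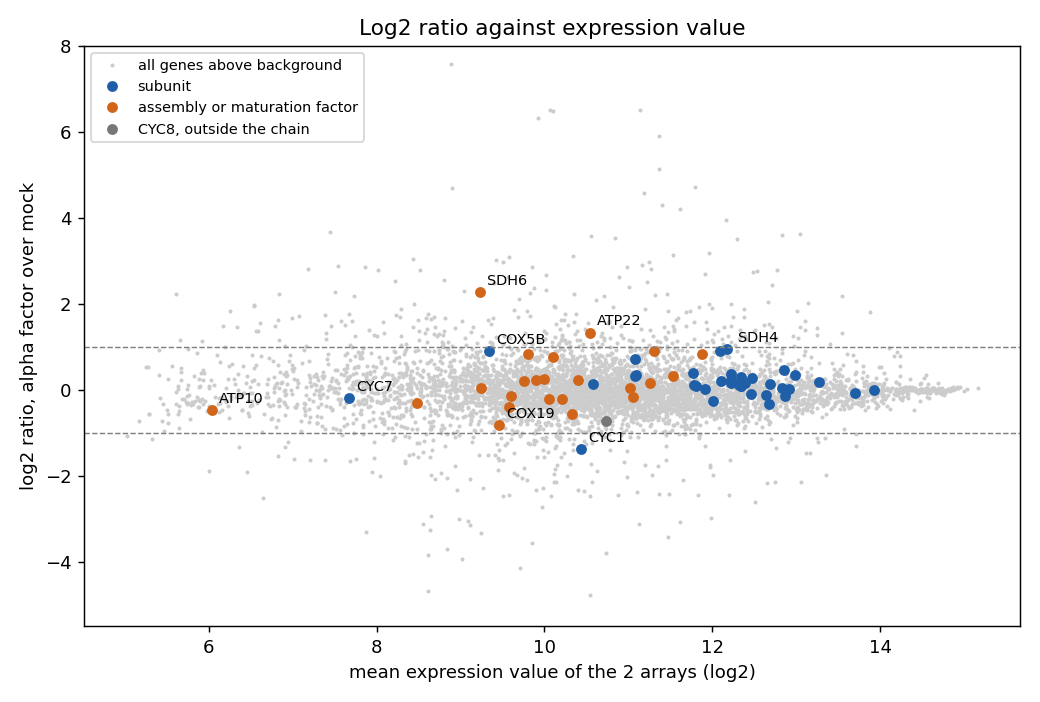
Log2 ratio (vertical axis) against the mean log2 expression value of the 2 arrays (horizontal axis) for all 5337 genes above background in grey, with subunits in blue, assembly factors in orange and CYC8 in dark grey. Dashed lines mark 2-fold. The subunits sit mainly to the right, where the grey cloud narrows, and SDH6, ATP22 and CYC1 lie outside the dashed lines.

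CYC8, the co-repressor outside the chain, was at 11.09 in the mock array and 10.38 with alpha factor, a log2 ratio of -0.72. Its partner TUP1 was at 12.69 and 12.13, a log2 ratio of -0.56. Both were lower by less than 2-fold.

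Other genes of the pathway were taken from lists written for this purpose. Of 10 regulators of respiratory genes, 3 were called lower by the 2-fold rule and none was called higher. Among all genes above background, 3.78% were called lower and 5.51% higher. The regulator list mixes activators and repressors, and its median log2 ratio was -0.42. HAP4, the activating subunit of the HAP complex that switches on respiratory genes away from glucose, was at 12.01 in the mock array and 9.97 with alpha factor, a log2 ratio of -2.03. ROX1, a repressor of low-oxygen genes, was at 10.17 and 8.89, and MOT3, which represses some of the same genes, was at 10.24 and 9.18. These were the 3 called genes. The DNA-binding HAP subunits HAP2, HAP3 and HAP5 had log2 ratios of -0.37, -0.46 and -0.03. HAP1, known as a heme-dependent activator of CYC1, had -0.11. Whether the HAP1 product is active in this strain was not measured. The highest of the list was RTG3, at 0.15.

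Low-oxygen genes other than COX5B and CYC7 did not share a direction. Of 14, 13 were above background, and by the 2-fold rule none was called higher and 3 were called lower. Among all genes above background, 5.51% were called higher and 3.78% lower. The 3 were all cell wall mannoprotein genes: TIR3 with a log2 ratio of -1.85, TIR1 with -1.67 and TIR4 with -1.16. DAN4, another mannoprotein gene, had the highest ratio, 0.83, and the median was -0.35. Of 8 heme synthesis genes none reached 2-fold, against 9.29% of all genes above background. In this list 2 genes had a ratio above 1, against 45.8% of all genes, and 6 had a ratio below it. The lowest was HEM3 at -0.88. The highest was HEM4, at 0.08.

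Small regulators of ATP synthase were listed with subunits under other names. Of the 8 genes of this list, 6 were measured and 3 of them were higher by 2-fold or more, against 5.51% of all genes above background. STF1, a small regulator of ATP synthase related to INH1, was at 9.57 in the mock array and 12.21 with alpha factor, a log2 ratio of 2.64. STF2, first described as a stabiliser of the inhibited enzyme, was at 10.69 and 12.16, a log2 ratio of 1.47, and INH1, the inhibitor itself, was at 10.57 and 11.20, a log2 ratio of 0.64. All 3 were thus higher, INH1 by less than 2-fold. SHH3, a paralogue of SDH3, was at 6.90 and 8.51, a log2 ratio of 1.61, while SHH4, a paralogue of SDH4, had the lowest ratio of the list, -0.73. TIM11, subunit e of ATP synthase, had a log2 ratio of 0.60, close to that of INH1 and beyond the range of the 13 subunits named ATP.

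Assembly and expression factors of complexes III, IV and V under other names numbered 41. None of them reached 2-fold, against 9.29% of all genes above background. The median log2 ratio of the 41 was -0.04. Above a ratio of 1 were 19 of them, against 45.8% of all genes, and 22 were below it. SCO2, related to the copper chaperone gene SCO1, had the highest ratio, 0.97, and PET122, a translational activator of the COX3 messenger, had the lowest, -0.66. Of 11 genes of the citric acid cycle, which shares complex II with the chain, 10 had a ratio above 1, against 45.8% of all genes above background. Higher by 2-fold or more were 2 of them, CIT1 at 1.18 and LSC2 at 1.01 on the log2 scale, against 5.51% of all genes. The median of that list was 0.32, and MDH1 was the lowest, at -0.33. Of 10 ubiquinone synthesis genes, 9 had a ratio above 1, against 45.8% of all genes. The median of these 10 was 0.22, and COQ6 was the highest at 0.80. COQ8 was the lowest, at -0.05. A list of 10 other redox protein genes, not all of them electron donors to the chain, was also read. Its log2 ratios lay between -0.53 for NDE1 and 0.82 for NDE2, the external NADH dehydrogenases. Of 5 carriers and porins, none reached 2-fold, against 9.29% of all genes. POR1, the outer membrane porin, was the highest at 0.41, and AAC1, a minor nucleotide carrier, was the lowest at -0.47.

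**Figure D4:**
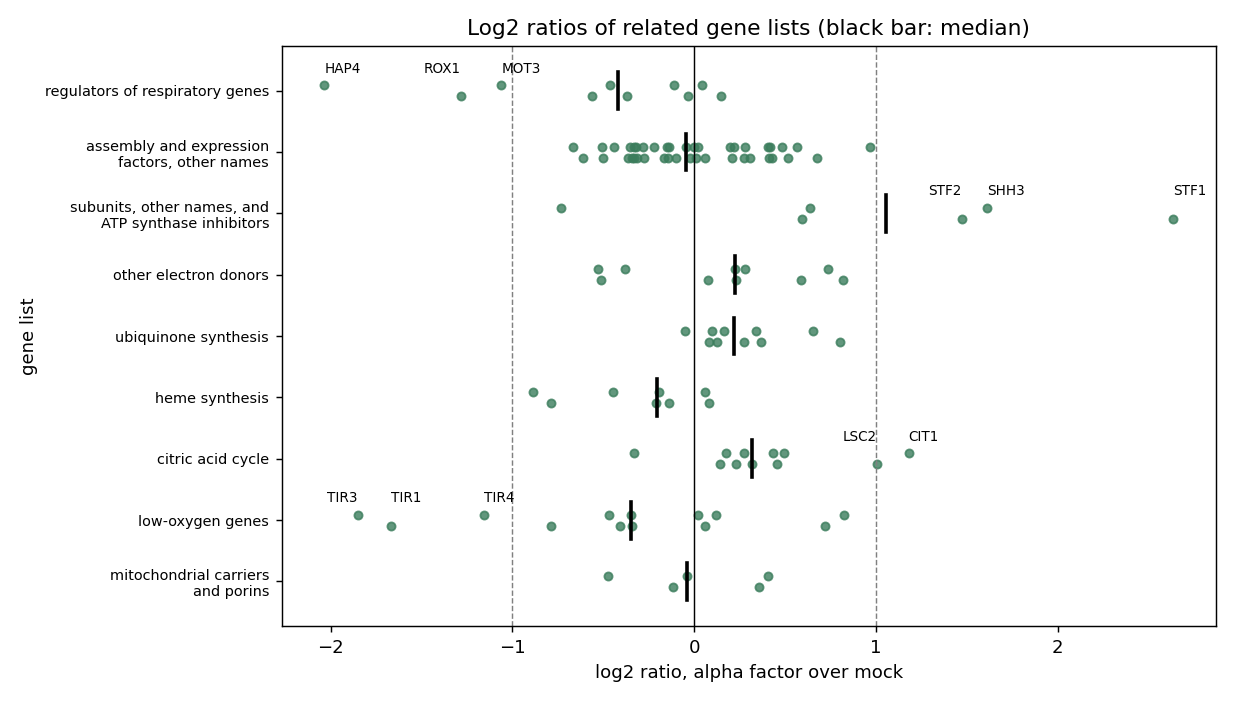
Log2 ratio of alpha factor over mock (horizontal axis) for the genes above background of 9 related lists, one point per gene, with the median of each list as a black bar. Dashed lines mark 2-fold and genes past them are named. HAP4, ROX1, MOT3, TIR1, TIR3 and TIR4 lie to the left of the lower line. STF1, STF2, SHH3, CIT1 and LSC2 lie to the right of the upper line.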

How the data were processed

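The deposited table covered 10928 probe sets on 1 mock and 1 alpha-factor array. The authors used the affy package, per the labels, and the deposited values, from 3.32 to 15.19, were taken as log2; background correction, normalization and probe summary are unknown here. The sorted columns differed by at most 0.09, so a change in total mRNA would not be seen. Probe sets were named through the platform annotation, with symbols updated by gene ID from the RefSeq table of assembly R64 (5498 for S. cerevisiae, 1747 for S. pombe), and averaged per gene. A call needs a log2 ratio of at least 1 in size and a value above background on either array.

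Members and lists were chosen with earlier results of these data known. Named are members that were called, the isoform pairs, the 5 highest and 5 lowest, the extremes per complex and role, and, in the related lists, called genes and both extremes. Other genes named, including neighbours in the annotation, were chosen after their values were seen. Before use, calling was run on simulated data with known changes, which checks the computation and not differences between cultures. With 1 array per group there is no test, and the number of arrays limits precision. Alternatives were other scalings, probe set rules, a pseudocount of 32, other fold rules and background levels, and subsets of members. Scripts ran in Python 3.11.15 with numpy 2.4.6, pandas 2.3.3 and statsmodels 0.14.6.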

Additional observations from a re-analysis of the deposited data

How the results depend on the processing

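With a 1.5-fold rule 10 members were higher and 3 lower, with a 4-fold rule 1 was higher and 0 lower, and without complex II, a setting chosen after seeing the data, 1 was higher by 2-fold or more. Under the other scalings, probe set rules, background levels and the pseudocount, the 2-fold counts stayed within 1.5 times, and of 427 single-gene values 426 kept their side of the 2-fold rule. The exception was SDH4, at 1.01 after removal of a loess curve. The probe set rules could not change any member, since all 61 had 1 probe set and none marked several transcripts. Their unchanged values are counted in the 427 and say nothing about robustness. All 61 members were above background, so dropping the background rule could not change a call either. The log2 ratio of SDH6 ran from 2.16 to 2.31, that of ATP22 from 1.30 to 1.38 and that of CYC1 from -1.38 to -1.34. All 8 complex II genes stayed above a ratio of 1 under the 7 settings of scaling, probe sets and pseudocount. Their median ran from 0.71, without SDH6, to 0.82. The members' median ran from 0.08 to 0.22. The difference between assembly factors and subunits ran from -0.08 to 0.03, and complex V from -0.00 to 0.08, so neither has a settled sign. No paired analysis was possible because each group had 1 array. Leaving out mitochondrially encoded genes, or genes below background, left out no member. Ratios of genes bright in both arrays can be compressed.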
